A study of Homo sapiens with 17 samples.

Results

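Oxidative phosphorylation (OXPHOS) is run by 5 protein complexes of the mitochondrial inner membrane, and the genes described here are those of the nuclear genome that encode their subunits or carry a COX or NDUF symbol as assembly factors. Members were chosen by symbol alone: symbols of the forms NDUFA, NDUFB, NDUFC, NDUFS, NDUFV, COX, UQCR or ATP5 followed by further letters or digits, and SDHA to SDHD. The rule found 102 of the 19222 genes of the 1 h table. These were 37 subunits of complex I, 4 of complex II, 9 of complex III, 15 of complex IV, 15 of complex V, 7 complex I and 9 complex IV assembly factors, 3 pseudogenes and 3 genes in none of these lists (ATP5S, ATP5SL and ATP5L2). The cells were HEK-293T, a line of human embryonic kidney cells. TimeLapse sequencing (TL-seq) was used: cells take up 4-thiouridine (s4U), new RNA incorporates it, and a recoding step turns it into T-to-C conversions in the reads. At 1 h there were 3 untreated libraries and 3 libraries from cells given 1.8 µM emetine, all with 500 µM s4U for 1 h, and 1 untreated and 1 emetine-treated library with no s4U. The 2 h experiment held 3 libraries each of untreated cells, of cells given 1.8 µM and of cells given 240 µM emetine, with 250 µM s4U according to the labels. Emetine blocks the movement of ribosomes along mRNA, and the comparison asks which transcripts gain or lose abundance, and which change in turnover, when elongation is slowed. Nothing in the labels says whether the replicates were separate cultures, so p-values measure the spread between these libraries, which may be technical.

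Complexes I to IV pass electrons from NADH or succinate to oxygen, complexes I, III and IV pump protons as they do so, and complex V, the ATP synthase, uses the proton gradient to make ATP. Complexes I, III, IV and V hold a few core subunits made inside mitochondria from mitochondrial DNA, while all subunits of complex II and most subunits of the others are made on cytosolic ribosomes and imported. Assembly factors put in copper, heme or iron-sulfur centers or hold intermediates together, and are not part of the finished complex.

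Reads given to genes numbered between 22246279 and 40018063 in the 6 libraries with s4U, and members held between 359784 and 788765 of them. Members took 1.99% to 2.18% of gene reads in the untreated libraries, 1.99% and 1.97% in emetine replicates 1 and 2, and 1.48% in emetine replicate 3. That library stood apart from the other emetine libraries, so the main level results are also given without it. Of the 102 members, 96 had more than 100 reads in total and were tested for level, and 95 had at least 100 reads in each of the 6 libraries and were tested for fraction new, the estimated share of a gene's reads that came from RNA made during the hour. The 6 members under the level filter were COX8C, COX6B2, NDUFA4L2, ATP5L2, NDUFAF4P1 and UQCRBP1, with at most 29 reads in any of these libraries. In the libraries without s4U the median fraction new of members was 0 in both, and the highest value was that of the complex I subunit NDUFB5 (named after its values were seen), at 0.787% (untreated) and 3.14% (emetine), beside 5.78% ± 3.75 (SD, n = 3) in untreated cells with s4U. Vimentin, the keratin KRT18 and the neurofilaments NEFL and NEFM, which HEK-293T cells are known to make, were all present at 618, 59.9, 114 and 178 CPM in untreated cells (CPM is the read count scaled to the size of the library), while KRT8 was at 5.99 CPM and PAX2 at 1.80 CPM. Albumin and the fetal globins HBG1 and HBG2 had at most 10 reads in any library.

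Among the members, COX19 had the shortest and COX17 one of the longer half-lives of the complex IV assembly factors, although both encode small proteins that take part in copper delivery to cytochrome c oxidase and share a fold held by pairs of cysteines. Their coding sequences, from GENCODE 44 transcripts on GRCh38, are shown for that contrast, with the cysteine codons that stand in pairs with 9 codons between them in capitals. COX19 lies at chr7:898778-975549 on the minus strand and its coding sequence has 273 bases in 3 exons:

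COX19: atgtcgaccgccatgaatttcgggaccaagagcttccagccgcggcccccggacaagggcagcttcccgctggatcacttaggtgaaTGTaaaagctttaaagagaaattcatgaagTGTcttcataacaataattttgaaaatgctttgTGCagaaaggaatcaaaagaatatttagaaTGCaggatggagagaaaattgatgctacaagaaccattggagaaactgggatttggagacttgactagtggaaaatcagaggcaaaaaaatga

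COX17 lies at chr3:119654513-119677454 on the minus strand, and its coding sequence has 192 bases in 3 exons:

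COX17: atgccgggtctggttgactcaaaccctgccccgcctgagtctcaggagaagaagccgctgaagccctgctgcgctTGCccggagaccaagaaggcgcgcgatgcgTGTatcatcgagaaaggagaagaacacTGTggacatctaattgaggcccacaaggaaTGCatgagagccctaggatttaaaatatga

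Both sequences held 2 such pairs, made of 4 codons. The share of codons ending in G or C was 49.5% in COX19 and 59.4% in COX17. After the stop codon the COX19 transcript runs on for 4526 bases and the COX17 transcript for 138 bases. Whether any of these features bears on the half-lives was not tested.

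Promoters of OXPHOS genes are known for sites of the factors NRF1, GABP and YY1. In RefSeq promoter sequences (GRCh38.p14, from 250 bases before to 50 after the start), 80 of the 102 members had an entry. Motifs were searched on both strands. The NRF1 core CGCATGCG was in 17.5% of these, against 2.46% of 27305 genes with a promoter entry. These 27305 genes were not limited to expressed ones, unlike most members. The ETS motif CCGGAAG, bound by GABP, was in 31.2% against 12.2%, and the YY1 motif AAGATGGC in 16.2% against 3.52%, while CCAAT was in 37.5% against 39.7%. The last letters of CCGGAAG are the first of AAGATGGC, so a stretch can match both. A match is a run of letters and not a measured site. The NRF1 core stood upstream of genes whose transcripts differed widely in half-life, of which 3 are shown with the core in capitals: NDUFS7, the longest-lived member, SDHD, the shortest-lived subunit of complex II, and ATP5G2, the member with the highest level among those whose windows before the start were collected. Windows were not collected on every chromosome. The windows lie at chr19:1383807-1383866 (plus strand), chr11:112086738-112086797 (plus strand) and chr12:53676091-53676150 (minus strand), all GRCh38.p14:

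NDUFS7: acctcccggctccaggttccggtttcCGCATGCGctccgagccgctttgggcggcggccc

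SDHD: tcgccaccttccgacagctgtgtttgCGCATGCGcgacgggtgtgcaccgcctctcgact

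ATP5G2: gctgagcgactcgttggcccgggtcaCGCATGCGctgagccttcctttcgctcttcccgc

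The core began 74, 109 and 41 bases before the start of NDUFS7, SDHD and ATP5G2. Their half-lives in untreated cells were 65.9, 7.49 and 20.7 h.

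Subunit transcripts were abundant in untreated cells, and assembly factor transcripts were not. On the scale of CPM per kilobase of transcript, which allows genes to be compared, the median untreated level was 219 for complex I subunits, 182 for complex II, 310 for complex III, 555 for complex IV and 371 for complex V, against 17.6 for complex I and 23.5 for complex IV assembly factors. With the median length of a gene's coding transcripts, the highest levels per kilobase were those of ATP5J2 (now ATP5MF, a membrane subunit of ATP synthase) at 1100 CPM, ATP5B (now ATP5F1B, the catalytic beta subunit, named here after its values were seen) at 1061 CPM and COX6A1 (a structural subunit of cytochrome c oxidase) at 988 CPM. With the length of the canonical transcript, ATP5J2 was at 802 CPM per kilobase, under ATP5B and COX6A1. The places of NDUFV3 and UQCRHL as lowest and of COX17 as highest of their lists, given next, also depended on that choice of length. In complex I the range ran from NDUFS5 (635 CPM per kilobase) down to NDUFV3 (17.6), and in complex III from UQCRH (718) down to its near-identical copy UQCRHL (6.38), whose reads the counting could split uncertainly. The lowest tested levels in complexes IV and V were those of COX7A2L, a factor of respiratory supercomplexes (50.6 CPM per kilobase), and ATP5E, now ATP5F1E (93.0). Among assembly factors, NDUFAF3 (357) and COX17 (103) were the highest and NDUFAF5 (6.82) and COX19 (2.98) the lowest of their lists. The annotation places ATP5J2 within the same-strand span of PTCD1, so reads of the pair can be mixed where they overlap.

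The subunit transcripts turned over slowly. In untreated cells the median fraction new after 1 h was 3.30% for the 95 members tested, against 12.2% for the 10763 genes tested, which under steady state and labeling from the start of the hour corresponds to half-lives of 20.6 and 5.35 h. These half-lives count dilution by cell growth as loss, so none should exceed the doubling time of the cells, which was not measured here. Values above it would be too long, and the longest ones are better read as an order of genes than as hours. The median half-life of members was 25.7, 19.3 and 16.3 h in untreated replicates 1, 2 and 3. That of all genes was 7.12, 5.26 and 4.35 h. The libraries thus differed in estimated fraction new, but not in the order of the 2 medians. The cause of that difference was not tested. Of the 95 members, 88 had a fraction new below the median of all genes and 59 were in the 10% of genes with the lowest values. All 77 subunits tested were below the all-gene median, and 44 of them had half-lives over 20 h, as had 6.56% of all genes.

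By complex, the median untreated half-life was 19.2 h for complex I subunits, 16.5 h for complex II, 21.8 h for complex III, 25.4 h for complex IV and 26.4 h for complex V. These medians lie close together compared with the range within each complex. Complex I ran from NDUFA6 (8.85 h) to NDUFS7 (65.9 h), a subunit that carries an iron-sulfur cluster. NDUFS7 had a fraction new of 0.952%, 0.470% and 1.72% in the untreated libraries, or 72.5, 147 and 40.0 h, so half-lives of this length are known only within wide bounds. Complex III ran from UQCRFS1, the Rieske iron-sulfur protein (6.62 h), to UQCRHL (32.2 h). Complex IV ran from COX7A2L (14.6 h) to COX6C (45.7 h), and complex V from ATP5J, now ATP5PF (13.1 h), to ATP5J2 (43.8 h).

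Assembly factors were mixed. The 7 complex I factors had a median half-life of 5.61 h, with NDUFAF4 at 3.03 h and NDUFAF2 at 23.1 h as the extremes. The 9 complex IV factors had a median of 8.84 h, from COX19 at 0.871 h to COX16 at 31.02 h. All 6 members with a half-life under 5 h were assembly factors, as the plot of half-lives by complex shows. They made up 37.5% of the 16 assembly factors, and 47.0% of all genes had a half-life under 5 h.

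**Figure D1:**
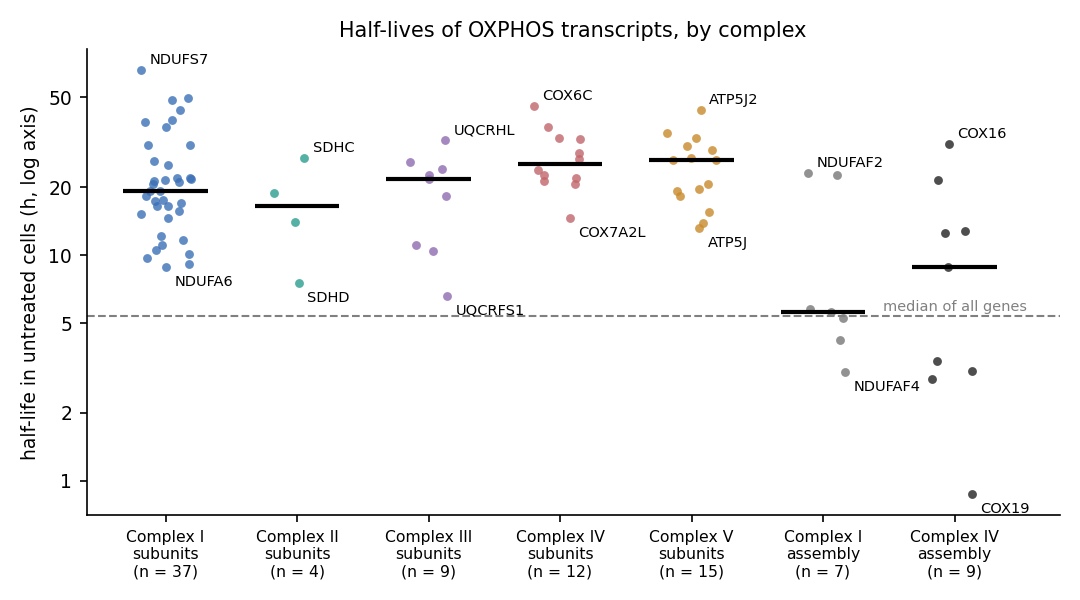
Half-life in untreated cells (h, log axis), from the mean fraction new of 3 libraries, of the members with at least 100 reads in each library, by complex or as assembly factors. Each point is a gene, black bars are group medians (16.5 to 26.4 h for subunits, 5.61 and 8.84 h for assembly factors), and the dashed line is the median of all genes (5.35 h).

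Members were also short. The median length of their transcripts was 775 bases, against 2699 for all genes, and that of their coding sequences was 438 against 1413 bases. The share of codons ending in G or C was close in members (median 55.8%) and in all genes (58.3%), and the median number of exons was 4 against 9. Shorter transcripts in the table also had a lower fraction new. Within bins of transcript length, the median untreated fraction new of members was below that of other genes in each bin: 2.73% against 4.52% under 600 bases, 3.29% against 6.09% from 600 to 1000, 3.66% against 9.19% from 1000 to 2000, and 5.78% against 14.05% over 2000. Mitochondrial ribosomal protein genes (77 genes), which are also nuclear-encoded and short, had a median half-life of 7.90 h, and cytosolic ribosomal protein genes (78 genes) one of 18.9 h. These lists are given as a description, with no test between them.

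After 1 h of emetine, COX19 was the only member that passed the test for level. It was raised, and 0 members were lowered, among 96 tested (edgeR, adjusted p under 0.05). Over all 13776 genes, 2.64% were raised and 0.0436% lowered, so 1 raised member of 96 is no larger a share than the background. At an unadjusted p under 0.05, 2 members (2.08%) were raised, against 14.9% of all genes, and 17 (17.7%) were lowered, against 6.95%. The DESeq2 test also called COX19 alone among the 96, beside 820 raised and 156 lowered genes in all. The median log2 fold change of members was -0.30, against 0.03 for all genes. All 77 subunits had a log2 fold change under 0, as had 6333 of the 13776 genes, and the 6 members above 0 were assembly factors. With scaling to the spike-in reads, however, 90 of the 96 changed sign, with medians of 0.38 for members and 0.71 for all genes. Spike-in reads numbered 236732, 213771 and 199699 in untreated and 126672, 325443 and 120560 in emetine libraries, so this scale varied widely within the emetine group. The median standard error of a member's log2 fold change was 0.16. The subunit with the lowest value was ATP5E, with 174, 178 and 172 CPM in untreated and 130, 155 and 78.6 CPM in emetine-treated libraries. These groups did not overlap, and its log2 fold change was -0.53 ± 0.21 (SE, adjusted p = 0.201).

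Emetine replicate 3 set much of this size. Against the mean of the untreated libraries, the median log2 change of members was -0.13 and -0.14 in emetine replicates 1 and 2 and -0.72 in replicate 3, while that of all genes was 0.02, 0.0040 and 0.03. In the untreated libraries the member medians were 0.00, -0.07 and 0.08 around their own mean. The value was under the untreated mean in all 3 emetine libraries for 81 of the 96 members. Taken singly, emetine replicates 1, 2 and 3 had 83, 88 and 91 of the 96 members under that mean. Of all 13776 genes, 6442, 6791 and 6550 were under it. The share of all genes under it in all 3 libraries was not computed. The same separation of replicate 3 appeared in cytosolic ribosomal protein genes (-0.22, -0.13 and -0.84), and the reverse in the regulators of respiratory genes described below (0.11, 0.11 and 0.30).

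**Figure D2:**
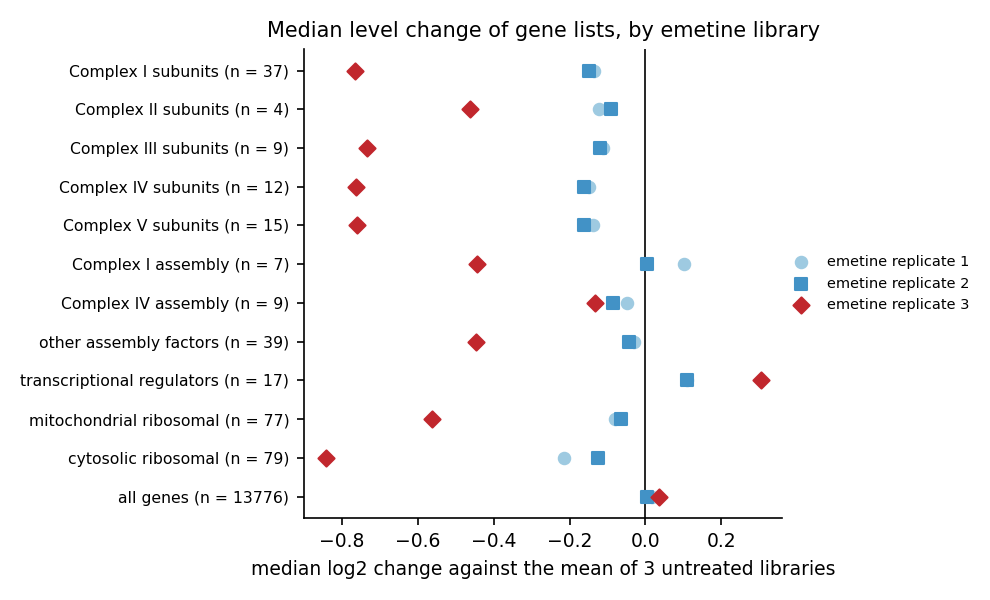
Median log2 change (CPM plus 0.5, against the mean of 3 untreated libraries) of each gene list in each emetine library. Emetine replicate 3 (red diamonds) lies at -0.77 for complex I subunits, and replicates 1 and 2 at -0.14 and -0.15. For the transcriptional regulators replicate 3 lies at 0.30, and replicates 1 and 2 at 0.11 and 0.11.

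Transcript length moved with this difference. Across 95 members, the log2 change correlated with log2 length with a Spearman rho of 0.34 in emetine replicate 1, 0.49 in replicate 2 and 0.65 in replicate 3, a description over genes that share the same libraries. With a smooth trend on length and GC content removed, the median of members was -0.13, beside 0.0091 for all genes. Within bins of length, members were still under other genes of the bin: -0.35 against -0.25 under 600 bases and -0.13 against 0.11 over 2000 bases, or -0.16 against -0.08 and -0.09 against 0.04 without emetine replicate 3. The part of length in the member values was not tested further.

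**Figure D3:**
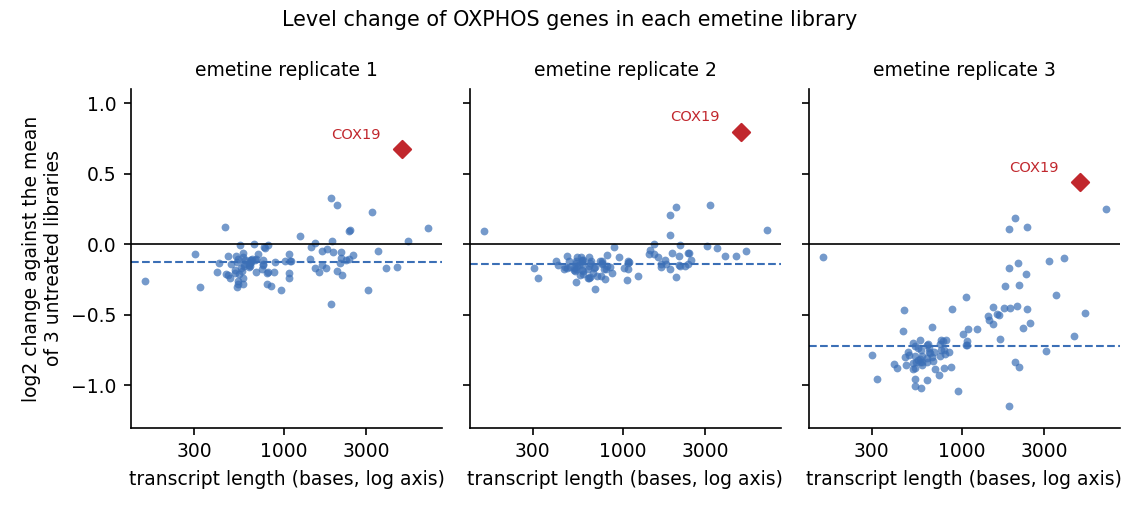
Log2 change of each tested member (CPM plus 0.5, against the mean of 3 untreated libraries) against transcript length (bases, log axis), in the 3 emetine libraries. The dashed lines are member medians (-0.13, -0.14 and -0.72), and COX19 is the red diamond, above 0 in all 3.

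Without emetine replicate 3, the median log2 fold change of members was -0.13, beside 0.0093 for all genes, and more members passed. Raised were 3 of 96, COX19, NDUFAF5 and NDUFAF7 (NDUFAF7 is named after its values were seen), against 10.1% of 13579 genes, and lowered were 11 of 96 (11.5%), against 3.87%. The lowered members included the ATP synthase genes ATP5E, ATP5G3 and ATP5J2, the cytochrome c oxidase subunit COX4I1 and the complex I genes NDUFS5 and NDUFS7. The shifts were small: -0.29 ± 0.07 (SE, adjusted p = 0.0148) for ATP5E, -0.22 ± 0.06 (adjusted p = 0.0332) for COX4I1 and -0.22 ± 0.06 (adjusted p = 0.0183) for NDUFS7 on the log2 scale. The median SE of members was 0.07 in this fit, against 0.16 with all libraries. With the trend on length and GC removed and all libraries kept, COX19 was again the only raised member, against 6.26% of 13408 genes, and 0 were lowered, against 1.32%.

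No subunit passed the test for a change in fraction new. COX19 alone had a lower fraction new and 0 members a higher one (limma on the logit, adjusted p under 0.05), against 4.83% and 0.214% of 10763 genes. At an unadjusted p under 0.05, 2 members (2.11%) were lower, against 15.4% of all genes, and 1 (1.05%) was higher, against 1.15%. None of these 3 was a subunit. The median fraction new of members was 2.67%, 3.52% and 4.16% in the untreated libraries and 2.93%, 3.29% and 3.35% in the emetine libraries, so the emetine values lay inside the untreated range. That of all genes was 9.26%, 12.3% and 14.7% against 10.7%, 11.04% and 10.3%. The median half-life of members was 20.6 h in untreated and 21.1 h in emetine-treated cells. Across 95 members the mean fraction new in the 2 conditions correlated with a Spearman rho of 0.94, and between untreated replicates 1 and 2 with 0.95. The median SE of the logit change was 0.25, so modest shifts of single genes could not be detected.

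NDUFAF5, which modifies a complex I subunit, lay highest above the diagonal. Its fraction new was 10.4%, 11.1% and 12.3% in untreated and 17.0%, 18.2% and 21.1% in emetine libraries, with no overlap of the groups. The change in logit was 0.60 ± 0.21 (SE), with an adjusted p of 0.0791, so it did not pass the test.

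**Figure D4:**
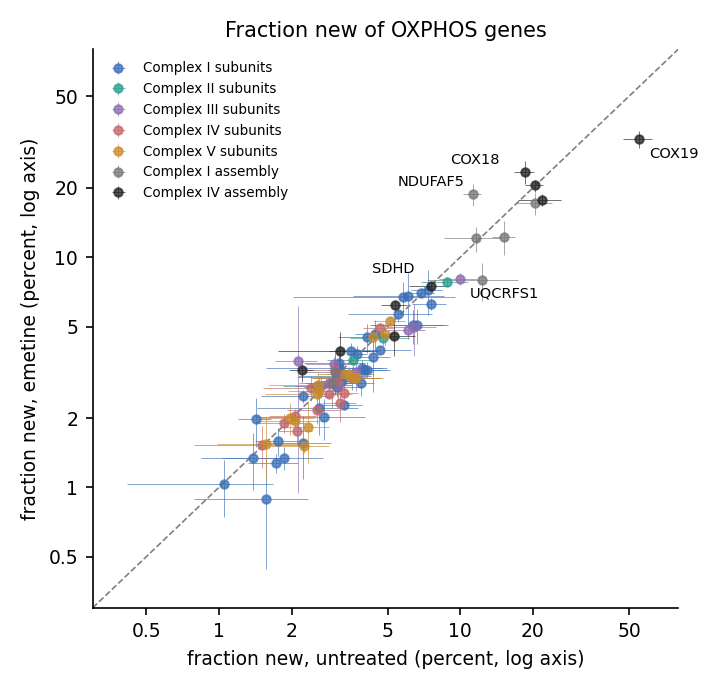
Mean fraction new (percent, log axes) of members in 3 untreated and 3 emetine libraries, with SD bars, colored by complex or assembly factor list. Points lie along the dashed line of equality, and COX19 lies below it at 54.9% and 32.6%.

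Splitting each level into labeled reads (CPM times fraction new) and unlabeled reads (the rest), which follow RNA made during and before the hour, gave the same single unlabeled call. Among 95 members, 0 changed in labeled reads (limma, adjusted p under 0.05), against 0.892% of all genes, and 1, COX19, changed in unlabeled reads, against 7.40%. At an unadjusted p under 0.05, labeled reads were raised in 1 member, NDUFAF5, against 1.64% of all genes, and lowered in 33 (34.7%), against 10.6%. The median log2 change of labeled reads was -0.34 in members and -0.14 in all genes, and that of unlabeled reads -0.32 and 0.04. Without untreated replicate 1, which had the lowest fraction new, 36 of 95 members (37.9%) passed for labeled reads, 35 of them lowered, against 16.7% of 10775 genes, so the member count depended on that library.

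COX19 was scarce, short-lived and higher after emetine. Its level was 15.5, 14.1 and 13.7 CPM in the untreated and 23.3, 25.4 and 19.7 CPM in the emetine libraries. Every emetine library was above every untreated library, by 1.58-fold on average (log2 fold change 0.66 ± 0.13 SE, edgeR adjusted p = 0.0330). Its fraction new was 46.6%, 56.8% and 61.1% in untreated and 29.5%, 33.4% and 34.9% in emetine libraries, again with no overlap (logit change -0.93 ± 0.23 SE, limma adjusted p = 0.00656). In the reads themselves, 155 of 432, 228 of 493 and 138 of 290 carried 2 or more T-to-C conversions in the untreated libraries, against 171 of 815, 271 of 1019 and 128 of 526 after emetine. The half-life these values give was 0.871 h in untreated cells. The 1.76 h obtained in the same way after emetine assumes a steady state, which a gene whose level was changing does not have.

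In CPM scaled to library size, the added COX19 reads were unlabeled ones. Unlabeled reads were 6.56 ± 1.52 CPM (SD, n = 3) in untreated and 15.4 ± 2.22 CPM in emetine-treated cells, and this difference passed the test (log2 change 1.18 ± 0.19 SE, adjusted p = 0.00664). Labeled reads were 7.87 ± 0.586 CPM and 7.42 ± 0.945 CPM (log2 change -0.08 ± 0.25 SE, adjusted p = 0.940). Leaving out any single library except emetine replicate 3 ended the call for level, with adjusted p-values from 0.0707 to 0.189, and the fraction new call was lost without untreated replicate 2 or 3 or emetine replicate 1 or 2 (0.0729 to 0.139), while the unlabeled call held in all 6 such fits. The level call was also lost with spike-in scaling (log2 fold change 1.32, edgeR adjusted p = 0.158). The split into labeled and unlabeled reads was not repeated on that scale. The span of COX19 overlaps ADAP1 on the same strand over 56630 bases, so reads of the pair could be mixed.

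**Figure D5:**
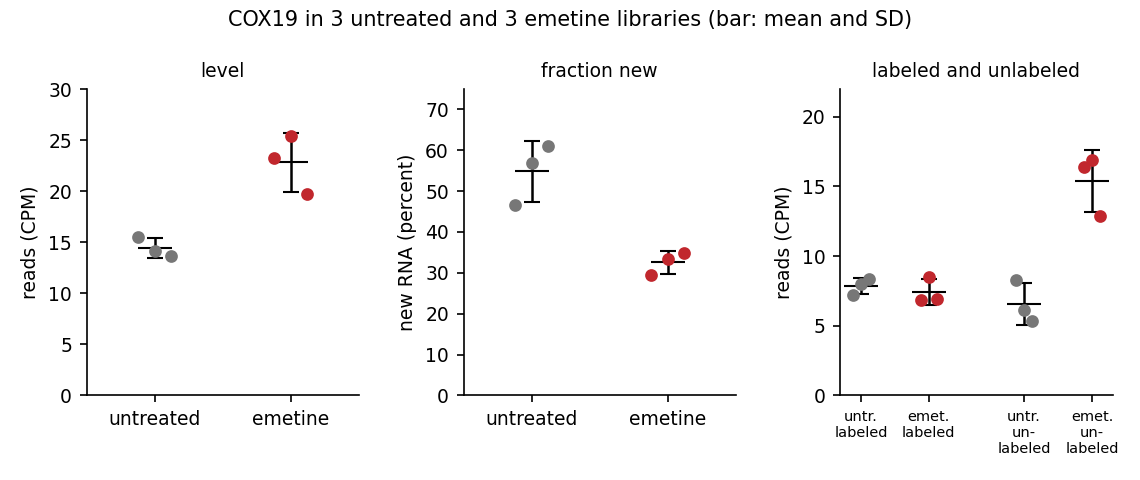
COX19 level (CPM), fraction new (percent) and labeled and unlabeled reads (CPM) in each of 3 untreated and 3 emetine libraries, with mean and SD. Emetine points lie above untreated ones for level and unlabeled reads, below them for fraction new, and overlap for labeled reads.

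COX17 did not share this pattern. Its level was 49.98, 43.98 and 52.21 CPM in untreated and 45.9, 45.8 and 27.8 CPM in emetine libraries, and its fraction new was 1.62%, 3.52% and 4.40% against 2.93%, 4.49% and 4.28%. Both groups overlapped, and neither measure passed (adjusted p = 0.354 and 0.679). Without emetine replicate 3 the log2 fold change of its level was -0.08 in place of -0.29.

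Complex II, which has no mitochondrially encoded subunit and also acts in the citric acid cycle, was followed gene by gene. SDHA, the flavoprotein, was at 245, 267 and 261 CPM in untreated and 241, 257 and 211 CPM in emetine libraries. SDHB, the iron-sulfur subunit, was at 228, 221 and 246 against 213, 206 and 149 CPM. The membrane anchors SDHC and SDHD were at 160, 169 and 173 against 144, 150 and 121 CPM, and at 119, 124 and 117 against 110, 118 and 87.0 CPM. The groups overlapped for SDHA and SDHD and not for SDHB and SDHC, and none of the 4 passed the test (edgeR, log2 fold changes -0.13 to -0.29, adjusted p 0.189 to 0.453). Without emetine replicate 3 the log2 fold changes were -0.05 for SDHA, -0.14 for SDHB, -0.18 for SDHC and -0.07 for SDHD, and again none passed (adjusted p 0.0501 to 0.651). Their half-lives in untreated cells were 14.1 h for SDHA, 18.9 h for SDHB, 26.8 h for SDHC and 7.49 h for SDHD, so the 4 transcripts of this complex differed among themselves. SDHD had a fraction new of 7.26%, 8.24% and 11.02%, above all 3 values of SDHC (1.9%, 2.44% and 3.31%). SDHA had a fraction new of 0.258% and 0.231% in the libraries without s4U, the highest values after those of NDUFB5.

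Where a subunit exists as paralogs, HEK-293T cells had the widely expressed copy. COX6B1 was at 317 CPM in untreated cells and the testis form COX6B2 at 0.141 CPM, COX8A at 443 CPM and COX8C at 0.00955 CPM, and NDUFA4 at 273 CPM against 0.299 CPM for NDUFA4L2, a gene known to respond to hypoxia. COX4I1, COX6A1, COX7A2 and COX7B were at 638, 531, 230 and 318 CPM, and their paralogs COX4I2, COX6A2, COX7A1 and COX7B2 were not analysed here. The 3 genes for the same subunit c of the ATP synthase ring were all present, with ATP5G3 (now ATP5MC3) at 604 CPM, ATP5G2 (ATP5MC2) at 551 CPM and ATP5G1 (ATP5MC1) at 279 CPM. They encode the same mature protein, yet their untreated half-lives were 13.9, 20.7 and 26.8 h. ATP5G3 had a fraction new of 4.26%, 4.70% and 5.60%, above ATP5G2 (2.84%, 3.17% and 3.88%) and ATP5G1 (1.74%, 2.25% and 3.67%), and the latter pair overlapped. After emetine the fraction new was 4.65% ± 0.548 (SD, n = 3) for ATP5G3, 3.10% ± 0.241 for ATP5G2 and 2.54% ± 0.338 for ATP5G1, in the same order. COX6B2 had 2, 4 and 5 reads in the untreated and 14, 19 and 14 reads in the emetine libraries, too few to be tested.

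Genes that work with the members were taken from further lists. Of 39 other assembly factors, 0 passed in level (edgeR, 1 raised and 1 lowered at an unadjusted p under 0.05), and of the 38 tested SDHAF1 alone had a lower fraction new, against 4.83% of all genes. Labeled reads were lowered in 1 of the 38, SCO2, and unlabeled reads were raised in 1, COA7 (limma). Over all genes, 0.892% changed in labeled and 7.40% in unlabeled reads. SDHAF1, needed for the iron-sulfur clusters of complex II, had a fraction new of 31.8%, 45.9% and 52.7% in untreated and 27.2%, 28.8% and 25.9% in emetine libraries (adjusted p = 0.0466), with a log2 fold change of 0.06 ± 0.15 SE in level. Of the 7 genes for electron carriers and remaining subunits, 0 passed in level or fraction new by edgeR and limma, with 1 lowered and 1 of lower fraction new at an unadjusted p under 0.05.

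The 17 regulators of respiratory gene transcription had a median log2 fold change of 0.18. PPRC1 and PPARGC1B, coactivators of the PGC-1 family, were raised and 0 were lowered (edgeR), beside the 2.64% and 0.0436% of all genes given above. At an unadjusted p under 0.05, 6 were raised, against 14.9% of all genes, and 0 were lowered, against 6.95%. Of the 16 tested for labeled and unlabeled reads (limma), 0 changed in labeled reads and 4 were raised in unlabeled reads. Over all genes, 0.892% and 7.40% changed in them. PPRC1 was at 150, 155 and 147 CPM in untreated and 221, 235 and 292 CPM in emetine libraries (log2 fold change 0.73 ± 0.12 SE, adjusted p = 0.0163). PPARGC1B was at 32.9, 34.2 and 30.5 against 46.6, 45.4 and 67.0 CPM (0.70 ± 0.15 SE, adjusted p = 0.0496). The groups did not overlap for either gene, and without emetine replicate 3 the log2 fold changes were 0.61 and 0.50, both past the test. Fraction new was lower for PPRC1 (33.9%, 42.1% and 48.7% against 25.1%, 27.1% and 25.4%, adjusted p = 0.0408) and for MTERF1, a mitochondrial transcription termination factor (36.3%, 41.0% and 48.5% against 23.3%, 23.1% and 28.0%, adjusted p = 0.0185). Each of the 5 level and fraction new calls on these 4 genes was lost in some fits that left out 1 library. Adjusted p-values rose up to 0.123 and 0.272 (PPRC1 level and fraction new), 0.235 (PPARGC1B), 0.203 (MTERF1) and 0.311 (SDHAF1). Both level calls held without emetine replicate 2 or 3, and that of PPRC1 also without replicate 1. The fraction new calls held only without untreated replicate 1. Spike-in scaling also ended the level calls of PPRC1 (adjusted p = 0.121) and PPARGC1B (0.136), and DESeq2's size factors that of PPARGC1B (0.0586). A minimum of 50 reads ended the fraction new calls of PPRC1 (0.0969), MTERF1 (0.0582) and SDHAF1 (0.124), and the mean new-read rate that of SDHAF1 (0.0628).

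The 13 subunits encoded by mitochondrial DNA had no rows in the gene table and were not analysed here gene by gene. Reads placed on the mitochondrial chromosome numbered 8.84, 7.82 and 8.01 per 100 gene reads in the untreated and 7.36, 7.25 and 5.63 in the emetine libraries. These groups did not overlap, and the smallest p of an exact permutation test of 3 against 3 libraries is 0.1. Their T-to-C conversion rate was 2.11%, 2.08% and 2.13% of T positions in untreated and 2.27%, 2.15% and 2.14% in emetine libraries, against 0.0668% and 0.0697% without s4U.

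At 2 h, 83 of the 102 members were among the 9982 genes of each table. Of the deposited columns only the authors' mean of normalized counts over the 2 h libraries was used, so no comparison between doses is made. That mean ran from 144 (COX14, named after its values were seen) to 7067 (ATP5B), with a median of 663. The 13 members that were tested at 1 h but had no row at 2 h included UQCRHL, COX16, COX17, ATP5E and ATP5J2, and their median transcript length was 534 bases, against 804 for the 83 others. Across the 83 members the 2 h mean and the untreated CPM at 1 h correlated with a Spearman rho of 0.36, a description over 2 experiments whose libraries were made with different kits.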

How the data were processed

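HEK-293T libraries were grouped by the treatment, time and replicate in their labels. At 1 h, cutadapt (adapters), hisat-3n (mapping, hg38) and bam2bakR (T-to-C conversions) were run by the authors, and the deposited values are read counts without normalization. For the 2 h experiment they counted reads with htseq-count, and the signal values, deposited by the authors, are means of counts normalized to spike-in reads over the 2 h libraries. The other columns of the 2 h tables hold the authors' own fold changes, standard errors and p-values and were not used. Library kits were TruSeq Stranded mRNA (1 h) and SMARTer Stranded Total RNA (2 h). No molecular identifiers are described, so reads are not independent molecules. Standard errors and p-values measure the spread between libraries.

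Counts were summed per gene and compared, 3 untreated against 3 emetine libraries, with edgeR 4.0.16 (TMM, quasi-likelihood test, in R 4.3.3). The filter of over 100 counts in total left 13776 genes. Fraction new was the maximum likelihood weight of a 2-component binomial mixture, with the background rate from the library without s4U of the same treatment and the new-read rate fitted per library. Its logit (bounded at 0.001 and 0.999) and labeled and unlabeled CPM (log2, plus 0.5) were compared with limma 3.58.1 (trend, robust), where each library had 100 or more reads (10763 genes). P-values were adjusted by Benjamini-Hochberg over all genes tested and called at 0.05. The half-life is -ln 2 times 1 h over ln(1 - fraction new). The study used bakR, which was not run here. Fold changes and CPM use TMM-scaled library sizes. Symbols were matched to GENCODE 44 on GRCh38, the build hg38 names: all 102 members matched, 19 of them by an older symbol. Lengths are medians over basic protein-coding transcripts.

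Members and gene lists were chosen with earlier results of these data known. Named genes are members past a test, the extremes of level and half-life in each complex list, the SDH genes, the paralog sets, and list genes past the test; others are marked. Tested on simulated data, edgeR recovered 95.5% of 200 genes with a log2 change of 1 among 13719 (7.28% of calls false), and limma 74.0% of 200 with a logit change of 1 among 3000 (2.63% false). For edgeR the changed genes were drawn from those with more reads. Noise was independent between genes, so smaller changes and shifts shared by many genes of a library were not covered. Alternatives were DESeq2 1.42.0, other scalings, filters, rates and pseudocounts, a trend on length and GC removed (mgcv 1.9.3), a replicate block and leaving out each library.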

Additional observations from a re-analysis of the deposited data

How the results depend on the processing

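The count of raised members was 1 (COX19) with TMM, with DESeq2's size factors or test, without a count filter and with the length and GC trend removed. It was 0 with spike-in scaling (COX19 adjusted p = 0.158) and 0 to 3 when 1 library was left out, and that of lowered members was 0 in each of these except for leaving out 1 library, where it was 0 to 11, the 11 coming without emetine replicate 3. Spike-in scaling moved the median log2 fold change of members from -0.30 to 0.38 and that of all genes from 0.03 to 0.71. Leaving out 1 library gave 0 to 2 members with lower and 0 to 1 with higher fraction new, 0 to 36 with changed labeled reads (36 without untreated replicate 1) and 1 to 9 with changed unlabeled reads (9 without emetine replicate 3). Over all genes, leaving out untreated replicate 1 gave 2522 with lower and 42 with higher fraction new, and 1800 of 10775 (16.7%) with changed labeled reads. Leaving out emetine replicate 3 gave 1769 genes with changed unlabeled reads. A minimum of 500 reads left 0 members with lower fraction new and 0 with changed unlabeled reads, because COX19 then was not tested. Centering on library medians gave 1 member with higher fraction new (NDUFAF5, 126 genes in all) and 6 with changed labeled reads (434 genes in all). It also gave a COX19 labeled log2 change of 0.047 in place of -0.08 (limma adjusted p = 0.905). The mean new-read rate gave 1 member with changed labeled reads (139 genes in all). The cause of these differences was not tested. Same-numbered libraries deviated together with correlations of 0.07, -0.02 and -0.18 in level, so the numbers were not taken as pairs. With a replicate block, 0 members were raised (75 genes in all) COX19 had an adjusted p of 0.0791, and the level calls of PPRC1 and PPARGC1B were also lost. Median half-lives stayed between 17.6 and 22.5 h in each alternative run. With a median SE of 0.25 logit units, modest changes in the fraction new of single genes are beyond this depth and number of libraries.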
